A study of Homo sapiens with 6 samples.

Results

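The mRNAs of 10 mouse genes were followed: the isoenzyme pairs of 4 steps of glucose breakdown to lactate (hexokinase Hk1 and Hk2, phosphofructokinase Pfkl and Pfkm, aldolase Aldoa and Aldoc, lactate dehydrogenase Ldha and Ldhb) and the lactate transporters Slc16a1 and Slc16a3. They were taken by symbol, all 10 were among the 21872 rows of the count table, and all 10 had enough counts to test. RNA came from MOC2, a mouse oral squamous carcinoma line, in 3 control and 3 HuR knockout libraries. Control cells had received lentiviral particles with a control CRISPR/Cas9 construct. Knockout cells had received particles with CRISPR/Cas9 against HuR, an RNA-binding protein encoded by Elavl1, and per the labels a single clone was then grown, so any feature of that clone cannot be told apart from the loss of HuR. The genotype label reads knockout, while the titles use KD. The series calls the libraries biological triplicates but names no separate clones. The p-values set the group difference against the spread among libraries within these groups, which may be partly technical. They do not extend to other clones.

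Glycolysis splits glucose into pyruvate in the cytosol. Several of its steps are run by enzymes encoded by more than 1 gene, which differ in tissue of expression, regulation and affinity. Hk2, Aldoa, Ldha and Slc16a3 are well-known targets of the hypoxia-inducible factor HIF-1 and are often raised in tumours. The pairs are not a division into HIF-1 targets and other genes. Hk1 is the general housekeeping hexokinase, and Pfkm is the muscle-type and Pfkl the liver-type phosphofructokinase. Aldoc is best known from brain and Ldhb from heart. Slc16a3 encodes MCT4, which mainly exports lactate, and Slc16a1 encodes MCT1, which moves lactate either way.

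The libraries held 16158516 to 21294330 counts after the correction described under processing, which touched none of the 10 genes. Levels are in CPM, counts scaled by the library's TMM-scaled total (the usual CPM unit). Knockout library 3 stood apart from the others of its group: across genes its log2 CPM correlated with knockout libraries 1 and 2 at 0.924 and 0.931, against 0.978 between those (genes are not independent replicates). Elavl1 mRNA was at 107, 119.7 and 117 CPM in the control libraries, against 116, 114 and 105 CPM in the knockout libraries (log2 fold change -0.04, SE 0.111, adjusted p = 0.82, edgeR), so the mRNA level does not check the label. Of 10 epithelial markers 9 were tested, of which 6 fell, beside 15.4% of all genes tested. The summed level of the 10 was 11528 to 14113 CPM in the control libraries, against 5847 to 8686 CPM in the knockout libraries. Of 10 fibroblast markers 4 were tested, of which 3 rose, beside 20.3% of all genes tested. Among those that rose, Pdgfrb had 1, 1 and 0 control counts. It was tested only because of its knockout counts, a selection that favours increases. The fibroblast markers summed to 3.73 to 8.47 CPM in the control libraries, against 408.5 to 429.9 CPM in the knockout libraries. Lum was at 0 in every library and Col1a2 at most at 0.122 CPM. The 8 endothelial markers summed to at most 0.729 CPM in control and 1.96 CPM in knockout. The 8 leukocyte markers summed to 2.41 to 6.51 CPM and 1.81 to 36.9 CPM; in knockout library 3 nearly all of it was the lysosomal Cd68, and Ptprc (CD45) was at 0 in every knockout library. The part of these markers in the results on glycolysis was not tested. In bulk RNA, fewer cells of a type and less RNA per cell cannot be told apart.

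Of the 10 genes, 4 rose in knockout (Hk1, Pfkm, Aldoc and Ldhb), 2 fell (Hk2 and Slc16a3) and 4 did not pass (Pfkl, Aldoa, Ldha and Slc16a1). Over all 12293 genes tested, 20.3% rose and 15.4% fell (35.7% either way) at an adjusted p under 0.05 in the quasi-likelihood test of edgeR. The median log2 fold change of the 10 was 0.17, beside 0.03 over all genes tested. The same 6 genes had groups that did not overlap, as had 57.6% of all genes tested. In each of the 5 pairs, the count ratio of Hk2, Pfkl, Aldoa, Ldha or Slc16a3 to its partner was lower in every knockout library than in any control library. The shared direction depends on which gene of each pair was made the numerator. How often ratios of other gene pairs separate the groups was not computed, so no background share stands beside this. Without knockout library 3, 7 of the 10 rose and 2 fell, where 25.5% and 22.8% of 12471 genes did (48.3% either way): Pfkl, Aldoa and Ldha then passed as higher.

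**Figure D1:**
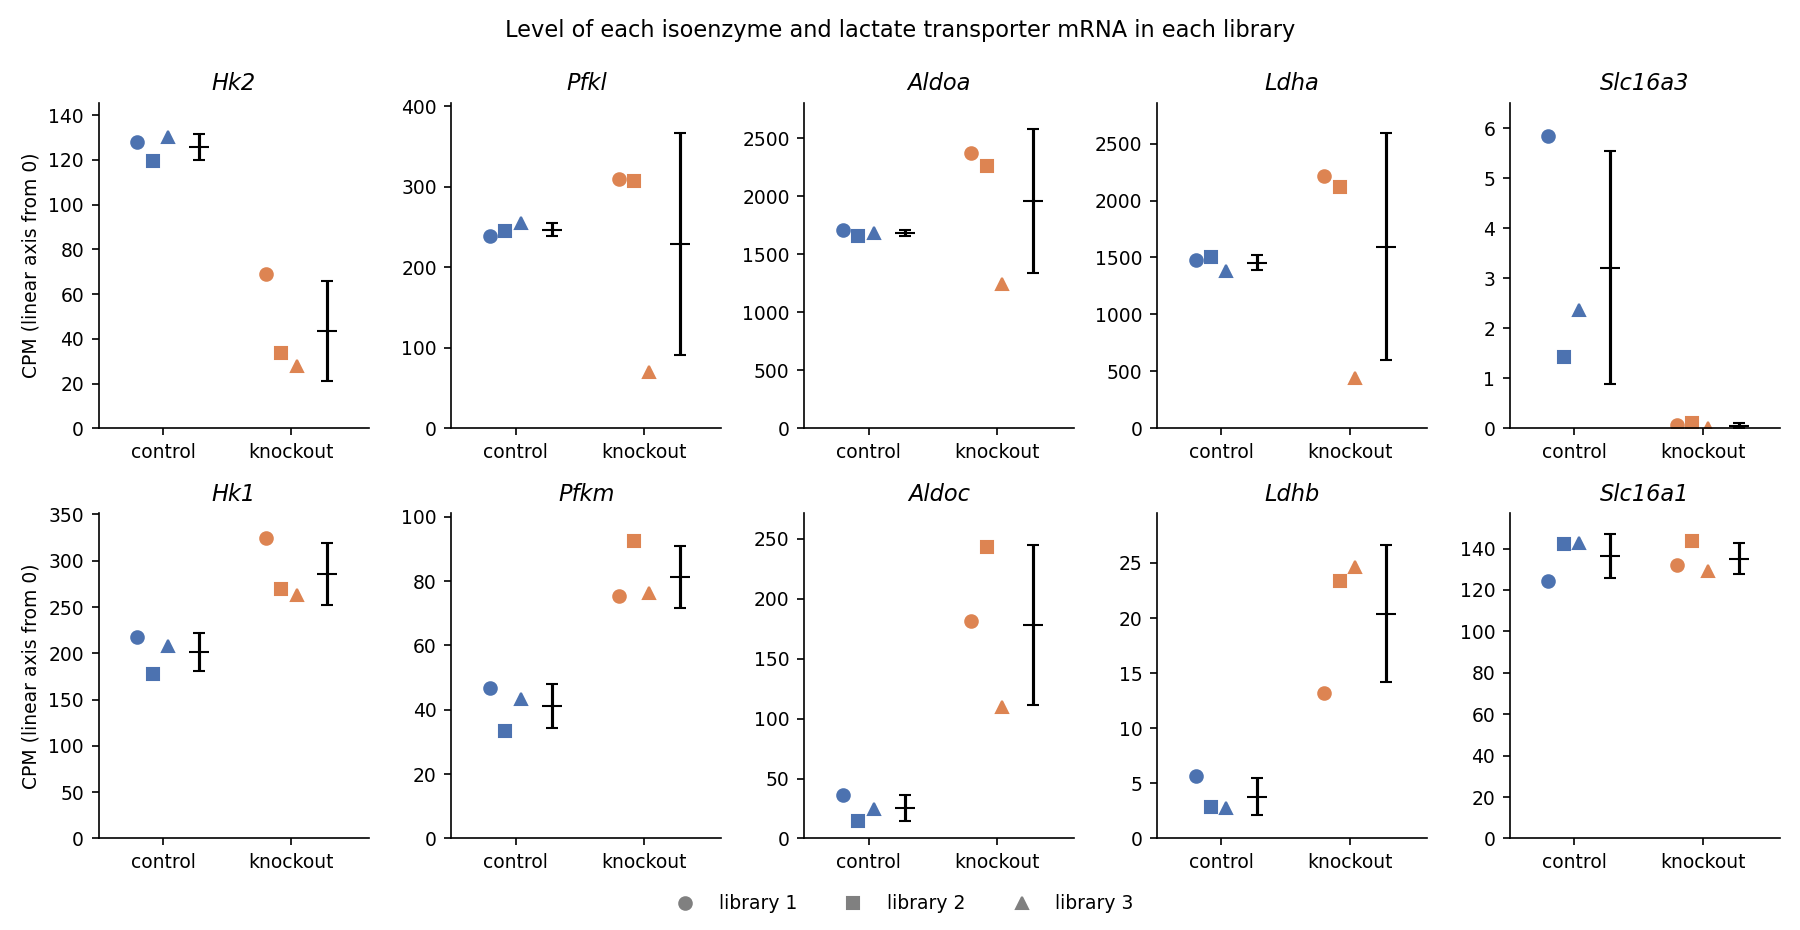
Level in CPM (linear axis from 0) of the 5 pairs, 1 pair per column; points are single libraries (circle 1, square 2, triangle 3) and the black bars mean ± SD of 3. Knockout library 3 lies far below the other knockout libraries for Pfkl (69.6 CPM), Aldoa (1244 CPM), Aldoc (109.7 CPM) and Ldha (443 CPM), and not for Pfkm, Ldhb or Slc16a1. Of the genes with this drop, only Aldoc stays above the control libraries in library 3.

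The hexokinases trap glucose in the cell by phosphorylation, the first step of the pathway. Hk2 was at 128, 119 and 130.5 CPM in the control libraries, against 68.9, 33.5 and 27.7 CPM in the knockout libraries. Every knockout library lay below every control library, with library 1 the least low. Hk2 fell 2.90-fold (log2 fold change -1.54, SE 0.341, adjusted p = 0.0151, edgeR). Hk1 was at 218, 178 and 208 CPM in the control libraries, against 324, 269.6 and 263 CPM in the knockout libraries. It rose 1.42-fold, with no overlap between the groups (log2 fold change 0.51, SE 0.146, adjusted p = 0.0356). Without control library 1 or 3 Hk2 just missed the threshold (adjusted p = 0.0512 and 0.0524, range over 14 alternatives 9.36e-05 to 0.0524), and Hk1 kept its call in 7 of 14 alternatives (0.00555 to 0.17) and lost it without any 1 library other than knockout library 3 (without control libraries 1, 2 and 3, 0.0807, 0.17 and 0.122; without knockout libraries 1 and 2, 0.0805 and 0.059), and also without the filter on low counts (0.0553).

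The count ratio of Hk2 to Hk1 was 0.588, 0.67 and 0.627 in control and 0.212, 0.124 and 0.105 in knockout. Such ratios are not corrected for gene length, so only their change is read, not which isoenzyme has more mRNA. The knockout ratio was 4.46-fold lower (log2 difference -2.16; two-sided exact permutation test, p = 0.1). With 3 libraries against 3, 0.1 is the smallest p this test allows. All 5 pairs gave that value, and 0.1 again after Benjamini-Hochberg adjustment over the 5, so none of the ratio changes can pass a 0.05 threshold in this design.

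Phosphofructokinase makes the committed step of glycolysis and works as a tetramer whose subunits come from Pfkl, Pfkm and Pfkp. Pfkm was at 46.7, 33.5 and 43.3 CPM in the control libraries, against 75.3, 92.5 and 76.2 CPM in the knockout libraries. It rose 1.97-fold with no overlap and passed in 14 of 14 alternatives (log2 fold change 0.98, SE 0.169, adjusted p = 0.00595, edgeR). Pfkp, the platelet-type subunit, rose 3.31-fold, from 85.4, 61.9 and 77.2 CPM to 359, 224 and 161 CPM (adjusted p = 0.00714). Pfkl behaved differently from both. It was at 239, 246 and 255 CPM in the control libraries, against 309.6, 307 and 69.6 CPM in the knockout libraries, so that libraries 1 and 2 lay above every control library and library 3 far below. Pfkl had a log2 fold change of -0.11 (SE 0.51, 95% interval -1.33 to 1.11, adjusted p = 0.887). Without knockout library 3 it was 1.25-fold higher (adjusted p = 0.0125, range over 14 alternatives 0.0125 to 0.917). The ratio of Pfkl to Pfkm counts was 5.12, 7.34 and 5.88 in control and 4.11, 3.32 and 0.913 in knockout, a 2.61-fold lower value that shrank to 1.63-fold without knockout library 3.

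Aldolase splits the doubly phosphorylated sugar into trioses. Aldoc had the smallest p of the 10 genes. It was at 36.5, 14.7 and 24.4 CPM in the control libraries, against 181, 243 and 109.7 CPM in the knockout libraries. The lowest knockout library, library 3, still lay far above the highest control library, and the groups did not overlap. Aldoc rose 7.05-fold (log2 fold change 2.82, SE 0.423, adjusted p = 0.00373, edgeR) and passed in 14 of 14 alternatives. Aldoa, the general and muscle-type aldolase, was at 1709, 1654 and 1683 CPM in the control libraries, against 2368, 2263 and 1244 CPM in the knockout libraries. Libraries 1 and 2 were again above the controls and library 3 below them. Aldoa did not pass over all libraries (log2 fold change 0.22, SE 0.249, 95% interval -0.38 to 0.82, adjusted p = 0.524) and was 1.38-fold higher without knockout library 3 (adjusted p = 0.000986, range over 14 alternatives 0.000986 to 0.877). The ratio of Aldoa to Aldoc counts was 46.8, 112 and 68.9 in control and 13.1, 9.32 and 11.3 in knockout. It was 6.40-fold lower in knockout (log2 difference -2.68), and knockout library 3 lay between the other knockout libraries, unlike for the levels of Aldoa and Aldoc themselves.

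Among the tested genes, the profiles over the 6 libraries most like that of Aldoc were those of 2010300C02Rik, Xpnpep2 and Dmpk. Their root mean square distances from Aldoc in centred log2 CPM were 0.189, 0.217 and 0.2497. Xpnpep2 had only 5, 0 and 1 counts in control and 19, 26 and 11 in knockout, so its distance is uncertain. Dmpk, the kinase gene mutated in myotonic dystrophy, was at 28.8, 18.6 and 25 CPM in the control libraries, against 211, 206 and 128 CPM in the knockout libraries.

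Lactate dehydrogenase converts pyruvate to lactate and back, as tetramers mixed from the Ldha and Ldhb subunits. Ldhb rose 5.37-fold, from 5.71, 2.90 and 2.73 CPM in control to 13.2, 23.3 and 24.6 CPM in knockout. The groups did not overlap (log2 fold change 2.42, SE 0.394, adjusted p = 0.00492, edgeR), and Ldhb passed in 14 of 14 alternatives. These levels rest on 45 to 122 counts per control library and 243 to 476 per knockout library. Ldha was at 1481, 1502 and 1382 CPM in the control libraries, against 2214, 2122 and 443 CPM in the knockout libraries. Knockout libraries 1 and 2 were above every control library, while library 3 was 3.29-fold below the control mean and 4.90-fold below the mean of the other knockout libraries. Over all libraries Ldha had a log2 fold change of 0.13 (SE 0.54, 95% interval -1.16 to 1.42, adjusted p = 0.869). Its sign was positive in 10 and negative in 4 of 14 alternatives. Without knockout library 3, Ldha was 1.49-fold higher (adjusted p = 0.000482, range over 14 alternatives 0.000482 to 0.952).

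Library 3 thus combined the lowest Ldha level with an Ldhb level close to that of library 2 and above that of library 1. The ratio of Ldha to Ldhb counts was 259, 518 and 505 in control and 167, 91 and 17.99 in knockout, the last far below the others. The mean log2 ratio was 8.67 ± 0.567 in control and 6.02 ± 1.66 in knockout (SD, n = 3 each), a 6.29-fold lower ratio. Leaving out knockout library 3 made the ratio 3.31-fold lower, and leaving out knockout library 1 made it 10.1-fold lower.

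**Figure D2:**
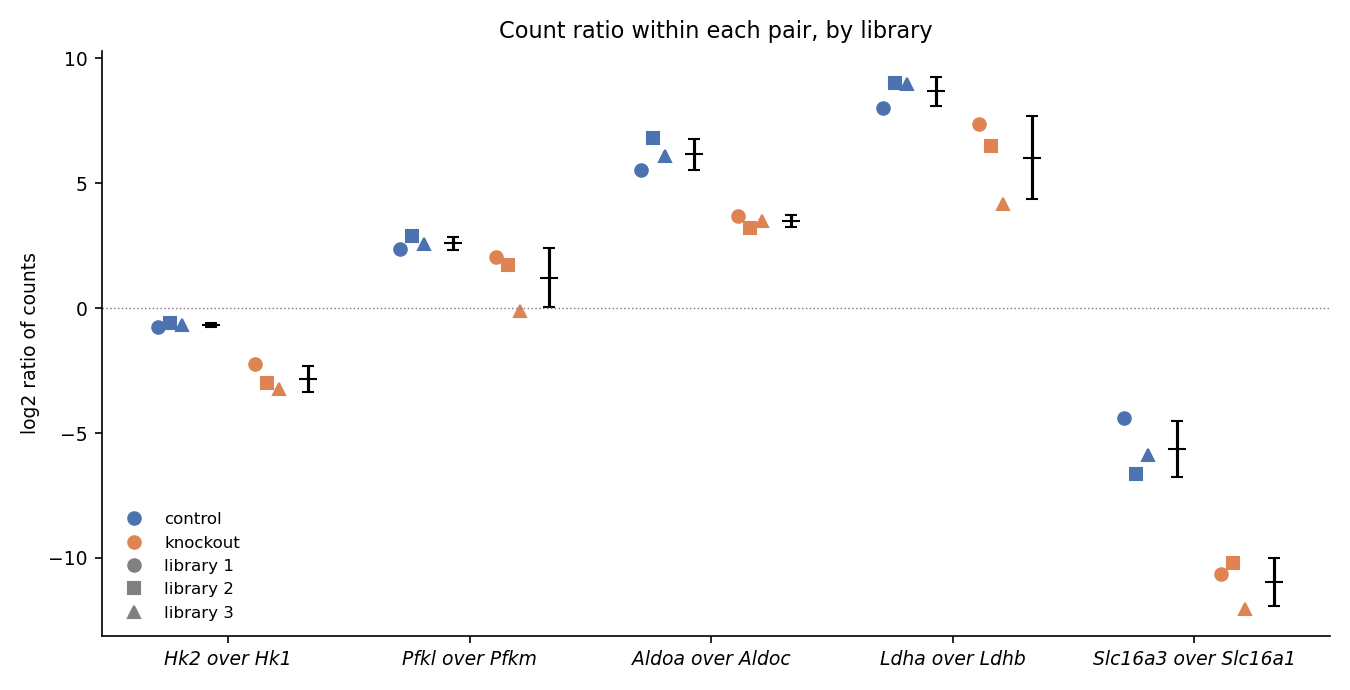
Log2 ratio of counts within each pair, by library (blue control, orange knockout; circle, square and triangle for libraries 1, 2 and 3; black bars mean ± SD of 3), with 0.5 added to each count for Slc16a3 over Slc16a1 only. In every pair the knockout points lie below the control points, a direction that depends on which gene is the numerator. Knockout library 3 is lowest for all pairs except Aldoa over Aldoc.

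The lactate transporters differed sharply from each other. Slc16a3 had 125, 29 and 39 counts in the control libraries and 1, 2 and 0 in the knockout libraries. In CPM these were 5.85, 1.42 and 2.37 in control and 0.0545, 0.098 and 0 in knockout, where the 0 allows up to 0.184 CPM (3 counts). Control library 1 held most of the control counts, but every control library was above every knockout library. The summed level was 60.9 times lower in knockout (exact 95% interval 20.5 to 298, for counting error only). This ratio was 33.9 without control library 1 and 115 without knockout library 2. The edgeR fit gave a log2 fold change of -5.74 (SE 0.907, 95% interval -7.91 to -3.57, adjusted p = 0.00445), and Slc16a3 passed in 14 of 14 alternatives. Slc16a3 was tested only because of its control counts, a selection that favours decreases.

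Slc16a1 showed no detectable difference. It was at 124, 142 and 143 CPM in the control libraries, against 132, 144 and 129 CPM in the knockout libraries, with overlapping groups. The log2 fold change was -0.02 (SE 0.118, 95% interval -0.30 to 0.27, adjusted p = 0.928, edgeR), and no alternative passed (0.684 to 0.995). Unlike Ldha or Pfkl, Slc16a1 was at a similar level in all knockout libraries. The log2 ratio of Slc16a3 to Slc16a1 differed by -5.33 with 0.5 added to each count (40.1-fold lower, 26.2-fold without control library 1).

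**Figure D3:**
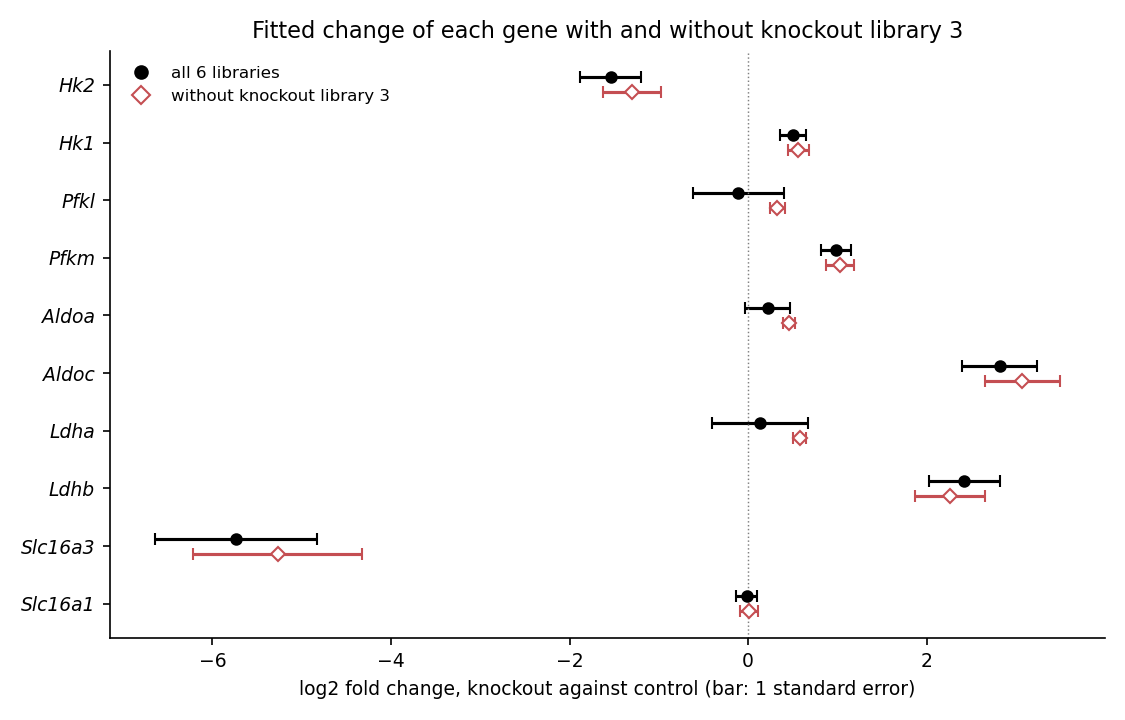
Fitted log2 fold change of each gene, knockout against control, with 1 standard error, for all 6 libraries (black circles) and without knockout library 3 (open red diamonds). Pfkl, Aldoa and Ldha move from wide intervals around 0 to small increases (0.32, 0.46 and 0.58), while Hk2, Hk1, Pfkm, Aldoc, Ldhb and Slc16a3 keep their side of 0 and Slc16a1 stays near it. The fitted value of Slc16a3, which goes from -5.74 to -5.27, rests on 3 knockout counts.

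The remaining enzymes of glycolysis rose or did not pass over all libraries. Of 19 listed genes 12 were tested, of which 3 rose and 9 did not pass (1 rose without control library 2, 9 without knockout library 3). Among all genes tested 20.3% rose, and 25.5% without knockout library 3. The median log2 fold change of the 12 was 0.08. Those that rose were Pfkp, given above, and the tissue-restricted enolases Eno3 and Eno2. Eno3, the muscle-type enolase, rose 4.84-fold, from 83.7, 53.8 and 49.8 CPM to 356, 418 and 132 CPM (adjusted p = 0.0102, edgeR; 0.0523 and 0.0522 without control libraries 2 and 3). Eno2, the neuronal enolase, rose 6.96-fold, from 1.92, 1.57 and 2.86 CPM to 8.88, 6.91 and 28.4 CPM (adjusted p = 0.0147; 3.75-fold without knockout library 3, and 0.0623 and 0.0677 without control libraries 1 and 2). Gpi1, the isomerase after hexokinase, was at 556 ± 46.2 CPM in the control libraries, against 772 ± 161 CPM in the knockout libraries (SD, n = 3 each; adjusted p = 0.0859, and 0.00199 without knockout library 3).

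Pfkm and Eno3 are the muscle-type isoforms of their families, so markers of striated muscle were read beside them. Not every muscle-type isoform was called higher. Aldoa did not pass over all libraries. Pgam2, the muscle-type mutase, had no count in control and 1, 0 and 2 in knockout after the correction described under processing, too few to test. The 10 striated muscle markers summed to 0.374 to 0.79 CPM in the control libraries, against 0.833 to 6.86 CPM in the knockout libraries. Des (desmin), the 1 marker with enough counts to be tested, had 2, 0 and 1 counts in control and 11, 12 and 19 in knockout. It was tested only because of its knockout counts, so the selection favoured an increase. Des was at 0.0936, 0 and 0.0608 CPM in control and 0.599, 0.588 and 1.16 CPM in knockout, a 13.5-fold rise (adjusted p = 0.0112, edgeR). Tnnt3, at 0.654, 0.196 and 5.27 CPM in the knockout libraries, and Ttn, at 0.109, 0.049 and 0.184 CPM, had no count in control. Myod1 went the other way, at 0.187, 0.246 and 0.486 CPM in control with no count in knockout, too few counts to test. Acta1 overlapped between the groups (2, 4 and 3 counts in control, 2, 0 and 4 in knockout). Myog, Myf5 and Myh4 were at 0 in every library. Ckm and Myh1 were at most at 0.0608 and 0.0491 CPM in control and at 0 in knockout. The part of muscle gene expression in the Pfkm and Eno3 levels was not tested.

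Knockout library 3 was set apart across the main enzymes of the pathway. The following pattern was picked after the values were seen and carries no test. In 8 of 20 glycolytic enzymes tested (Pfkl, Aldoa, Tpi1, Gapdh, Pgk1, Pgam1, Pkm and Ldha), knockout libraries 1 and 2 lay above every control library and library 3 below every control library. Of all 12293 genes tested, 4.34% had this pattern, and with DESeq2 size factors or unscaled totals the same 8 enzymes had it, beside 3.95% and 5.07% of all genes. Gapdh, for example, was at 3978, 4260 and 3864 CPM in the control libraries, against 5204, 4675 and 1805 CPM in the knockout libraries. Pkm, the pyruvate kinase of most dividing cells, was at 3448, 3605 and 3443 CPM in the control libraries, against 4386, 4170 and 1724 CPM in the knockout libraries. Eno1, the general enolase, fell outside that count: it was at 2742, 2938 and 2756 CPM in control, then at 2772 and 2537 CPM in libraries 1 and 2 of the knockout, with 620.2 CPM in library 3. Many of these genes have near-identical pseudogene copies in the mouse genome, and how reads shared with them were counted is not given in the sources used here.

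**Figure D4:**
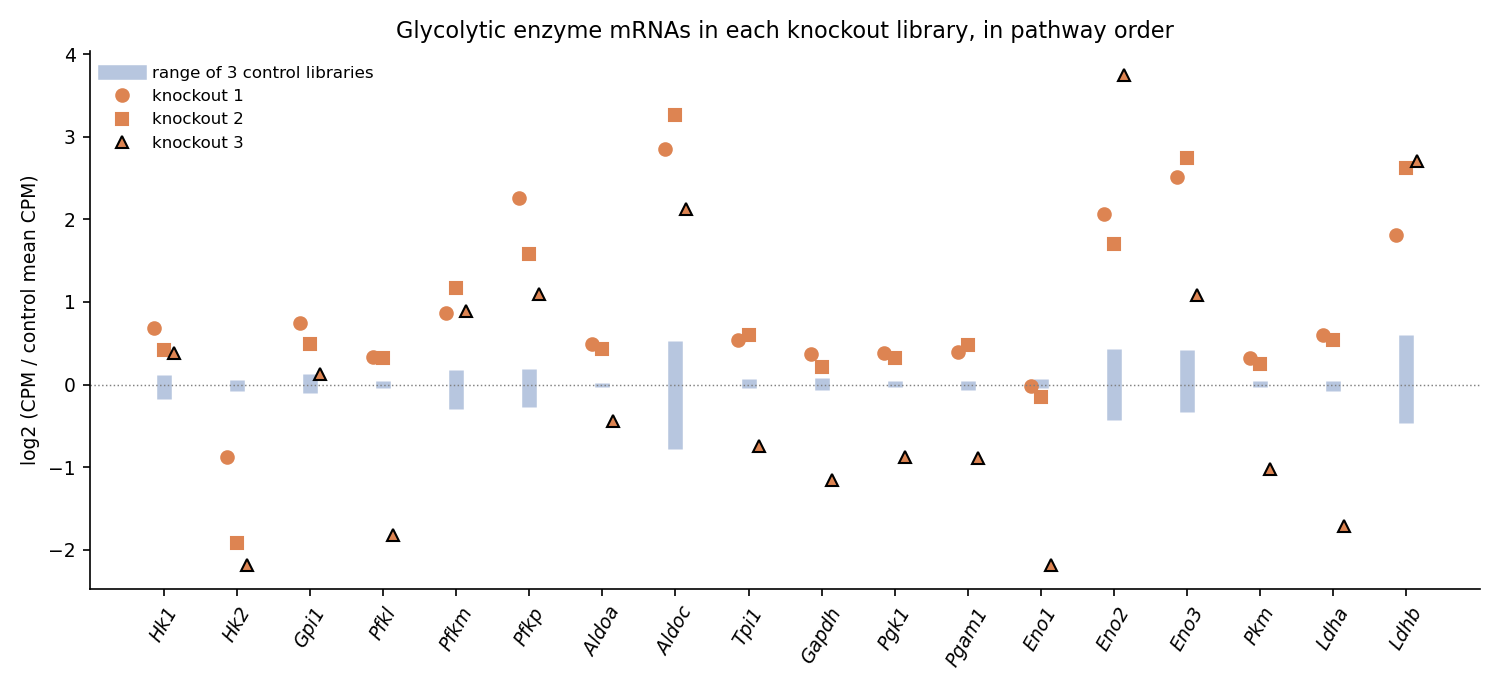
Log2 ratio of each knockout library's CPM to the control mean for 18 glycolytic enzymes in pathway order (circle, square and outlined triangle for knockout libraries 1, 2 and 3; blue bars span the 3 control libraries). Library 3 lies below the control range for Hk2, Pfkl, Aldoa, Tpi1, Gapdh, Pgk1, Pgam1, Eno1, Pkm and Ldha. Libraries 1 and 2 lie above it for these genes except Eno1 and Hk2, and for Hk2 they lie below it. All knockout libraries lie above the control range for Hk1, Gpi1 (library 3 only just), Pfkm, Pfkp, Aldoc, Eno2, Eno3 and Ldhb.

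Regulators of phosphofructokinase flux were lower or did not pass. Of 7 listed genes 5 were tested, and 2 fell (median -0.70). Among all genes tested 15.4% fell and 35.7% changed either way. Tigar, which breaks down the phosphofructokinase activator fructose 2,6-bisphosphate, fell 2.53-fold, from 41, 47.3 and 43 CPM to 18.9, 19.5 and 13.5 CPM (adjusted p = 0.00247, edgeR). Pfkfb1, an isoform of the enzyme that makes and removes that activator, fell 2.69-fold from 7.23 ± 0.204 to 2.67 ± 1.38 CPM (SD, n = 3 each; adjusted p = 0.0411), a call lost without any 1 control library (0.105, 0.115 and 0.109) or without knockout library 2 (0.0827). Its relatives Pfkfb3 and Pfkfb4 did not pass (adjusted p = 0.231 and 0.136; Pfkfb4 had 0.0103 without knockout library 3).

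The genes of the glucose transporter family that rose were at low levels, and the main importer gene Slc2a1 did not pass. Of 11 glucose transporters 4 were tested, and 3 rose (median 1.84), beside 20.3% of all genes tested. In the leave-one-out fits 2 rose without control library 1 or knockout library 2 and 4 without knockout library 1 (Slc2a6 had an adjusted p of 0.052 without control library 1, Slc2a9 of 0.0583 without knockout library 2). Without control libraries 2 and 3 no call was made, with adjusted p = 0.0525 and 0.0509 for Slc2a6, 0.0646 and 0.0762 for Slc2a9 and 0.0874 and 0.0933 for Slc2a8. A transporter with hardly any control counts was tested only if its knockout counts were high enough, so the selection favours increases. Slc2a8 (GLUT8) rose 2.699-fold, from 8.85, 4.42 and 6.02 CPM to 13, 14.5 and 24.7 CPM (adjusted p = 0.0234, edgeR). Slc2a6 (GLUT6) reached 4.09, 8.33 and 1.16 CPM from at most 0.365 CPM (13.6-fold, 7.90-fold without knockout library 2; adjusted p = 0.0111), and Slc2a9, a urate transporter, rose 4.78-fold from 0.259 to 1.26 CPM (adjusted p = 0.0189). Slc2a1, which encodes the main glucose importer GLUT1, did not pass. It was at 207, 185 and 211 CPM in the control libraries, against 252, 177 and 108 CPM in the knockout libraries (adjusted p = 0.683).

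The other transporters of the SLC16 family and the chaperones that carry MCT1 and MCT4 to the membrane moved both ways. The list also held sodium-coupled monocarboxylate transporters of the SLC5 family, which had too few counts to test. Of 16 listed genes 6 were tested. In this list 2 rose and 3 fell (median -0.55), beside 20.3% and 15.4% of all genes tested. Without control library 2 or 3 it was 1 each way. Emb (embigin), a chaperone of MCT proteins, rose 2.52-fold, from 76.9, 63.4 and 65.7 CPM to 99.4, 132 and 287 CPM (adjusted p = 0.0381, edgeR). That call was lost without any 1 control library (0.095, 0.133 and 0.127) or without knockout library 2 (0.0501). Bsg (basigin), the main chaperone of MCT1 and MCT4, was at 617, 453 and 439 CPM in the control libraries, against 791, 865 and 441 CPM in the knockout libraries (adjusted p = 0.231). Slc16a13 rose 2.95-fold from 9.28 ± 1.07 to 27.4 ± 6.95 CPM (adjusted p = 0.00371). Slc16a6 and Slc16a10, an aromatic amino acid transporter, fell 4.65-fold and 2.98-fold (adjusted p = 0.0138 and 0.00565; Slc16a6 had 0.0527 and 0.0507 without control libraries 2 and 3).

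Among genes for pyruvate entry and oxidation in mitochondria, changes were about as frequent as among all genes. Of 16 listed genes 15 were tested; 4 rose, 1 fell and 10 did not pass (median 0.37), beside 35.7% of all genes tested that rose or fell. Without control library 1, 2 or 3, 2, 1 and 1 rose. Without knockout library 3, 7 rose and 2 fell, beside 48.3% of all genes tested that changed. Pdk2, a kinase that switches off pyruvate dehydrogenase, rose 13.97-fold, from 2.39, 1.57 and 1.34 CPM to 7.57, 17.1 and 49.98 CPM (adjusted p = 0.00945, edgeR; 6.94-fold without knockout library 3). Ldhd, the D-lactate dehydrogenase of mitochondria, was at most at 1.78 CPM in the control libraries, against 8.99, 9.06 and 58.8 CPM in the knockout libraries. It rose 21.5-fold (adjusted p = 0.0136; 7.56-fold without knockout library 3); the call was lost without control libraries 2 and 3 (0.0615 and 0.0593) and with limma-voom (0.0584). Pyruvate carboxylase, Pcx, was at 10.8, 10.8 and 11.5 CPM in the control libraries, against 17, 24.8 and 42.3 CPM in the knockout libraries, a 2.54-fold rise (adjusted p = 0.0219; 0.0783, 0.0879 and 0.0794 without control libraries 1, 2 and 3). In Pdk2, Ldhd and Pcx library 3 was the highest of the knockout libraries, whereas it was the lowest for Ldha. Pdk1 and Pdk3, of the same list, had the pattern of Ldha. Pdk1 was at 74.1, 57.4 and 77.8 CPM in the control libraries, against 119, 118 and 37.1 CPM in the knockout libraries. Pdk3 was at 33.2, 37 and 37.1 CPM, against 52.4, 58 and 31 CPM. Neither passed over all libraries (adjusted p = 0.507 and 0.237, edgeR). Dlat, a core subunit of pyruvate dehydrogenase, fell 1.40-fold from 131 ± 6 to 93.8 ± 9.15 CPM (adjusted p = 0.0227; 0.0722, 0.0877 and 0.0675 without control libraries 1, 2 and 3 and 0.0658 without knockout library 2).

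The pentose phosphate pathway, which branches off after hexokinase, held genes that rose and genes that fell. Of 8 genes tested 2 rose and 1 fell (median -0.15), close to the 35.7% of all genes tested that changed. Without control library 2 or 3 Rpia alone passed. Without knockout library 3, 3 rose and 3 fell, beside 48.3% of all genes tested that changed. Rpia, which interconverts the pentose phosphates, fell 2.17-fold from 57.6 ± 2.83 to 26.5 ± 6.86 CPM, and H6pd, its endoplasmic reticulum dehydrogenase, rose 3.23-fold from 47.2 ± 3.7 to 152 ± 79.7 CPM (SD, n = 3 each; adjusted p = 0.00857 and 0.012, edgeR). Pgls, the lactonase, rose 1.47-fold (adjusted p = 0.00941), and Rpe did not pass (0.0562; 0.0452 with DESeq2 size factors and 0.0134 with the DESeq2 test). H6pd and Pgls lost their calls without control library 2 (0.0592 and 0.0664) or 3 (0.0526 and 0.0684).

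Among 10 transcriptional regulators of glycolysis, 8 were tested, 2 rose and 2 fell (median 0.29), beside 20.3% and 15.4% of all genes tested. Epas1, which encodes HIF-2 alpha, rose from 0.983, 0.786 and 1.03 CPM to 19.1, 63.7 and 165 CPM (87.9-fold, 44.3-fold without knockout library 3; adjusted p = 0.00284, edgeR). Hif1a, which encodes HIF-1 alpha, was at 132, 153 and 174 CPM in the control libraries, against 186, 146 and 148 CPM in the knockout libraries (adjusted p = 0.766). Myc fell 1.48-fold from 257 ± 18.8 to 174 ± 10.1 CPM and Mlxip, a glucose-sensing factor, fell 1.503-fold from 53.2 ± 4.33 to 35.4 ± 2.58 CPM (SD, n = 3 each; adjusted p = 0.0129 and 0.0143). Without control library 2 or 3 both calls were lost (0.0615 and 0.0543 for Myc, 0.062 and 0.0651 for Mlxip). Txnip, an inhibitor of glucose uptake whose transcription follows glucose, was at 37.8, 8.99 and 13.6 CPM in the control libraries, against 58.2, 75.6 and 519 CPM in the knockout libraries. It rose 10.8-fold (adjusted p = 0.0412), with 3.31-fold (0.115) without knockout library 3, 19.2-fold (0.0616) without control library 1, and adjusted p = 0.135 and 0.139 without control libraries 2 and 3 and 0.0596 with limma-voom. Library 3 thus had the highest Txnip and Epas1 levels and the lowest levels of Ldha, Pfkl and Aldoa; the part of either gene in those levels was not tested.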

How the data were processed

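Per the labels, RNA libraries were made from total RNA with an mRNA-Seq kit; the authors deposited whole-number counts per gene symbol, not normalized. Per the submitters' processing notes, STAR 2.7.1a, featureCounts and hg38 were involved, in an unstated order; yet the symbols are those of mouse, and the gene models, strandedness and any filter are not stated in the sources used here. Libraries were assigned by title and library name. In the 1704 rows where control library 1 is 0 but another library is not, every value was a multiple of 11; these rows were divided by 11, a step absent from the labels. None of the 10 genes is among them.

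Knockout was tested against control with the package edgeR 4.0.16 under R 4.3.3 (low genes dropped by filterByExpr, TMM scaling, robust quasi-likelihood test, Benjamini-Hochberg over all 12293 genes tested, threshold 0.05). Standard errors come from the fold change and the F statistic. Within-pair ratios of counts were compared by two-sided exact permutation of libraries; because Slc16a3 has 0 counts in 1 library, 0.5 was added for that pair alone, which departs from the design. Alternatives were DESeq2 1.42.0 (test and size factors), limma-voom (limma 3.58.1), no TMM, no filter, counts as deposited, divided rows left out, the replicate number as a block, and each library left out. The procedure was tested on simulated data. The 10 genes, the 7 pathway lists and 5 marker lists were chosen with earlier results of these data known. Named genes are the 10, Elavl1, Pfkp, up to 4 of each list with the smallest p, and the 3 profiles nearest to that of the gene with the smallest p. Bsg, Hif1a, Gapdh, Pkm, Tpi1, Pgk1, Pgam1, Eno1, Pgam2, Pdk1 and Pdk3 were added after their values were seen. So were the single cell type markers and the genes under other observations. Every pair of libraries of a group differed by more than sampling noise. Mouse sequences and gene lengths were not used here.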

Additional observations from a re-analysis of the deposited data

How the results depend on the processing

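Over the leave-one-out fits, the number of all genes changed lay between 2312 and 6021 (1166 to 3178 higher, 1130 to 2843 lower), beside 4392 (2493 and 1899) with all libraries. Of the 10 genes, 3 to 7 were higher and 1 to 2 lower. Among the 87 listed pathway genes, not all of which had enough counts to be tested, 4 to 27 were higher and 3 to 12 lower. With all libraries 16 were higher and 9 lower, where 35.7% of all genes tested changed. The other alternatives kept each of these counts within 1.5 times. Calls of Pfkm, Aldoc, Ldhb and Slc16a3 held under all 14 alternatives. The log2 fold change of Ldha turned negative with limma-voom (-0.19), with the replicate block (-0.16) and without knockout library 1 (-0.18) or 2 (-0.13), and reached 0.58 without knockout library 3. Leaving out knockout library 3 also turned Pfkl, Slc16a1, Slc2a1 and Elavl1 positive; their leave-one-out ranges were -0.39 to 0.32, -0.085 to 0.015, -0.50 to 0.095 and -0.089 to 0.0061. Deviations of same-numbered libraries correlated at -0.05, 0.26 and 0.02, so the numbers were not taken as pairs. With the replicate block, 3 of the 10 genes rose and 2 fell, and Hk1 missed the threshold (adjusted p = 0.0599). With 0 to 2 counts per library, Slc16a3 levels in knockout are limited by depth.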

Other observations

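Several tissue-restricted genes of the same families were at or near 0 in all libraries. Pklr, the liver and red cell pyruvate kinase, Ldhc, the testis lactate dehydrogenase, and Slc16a8 (MCT3) had no count in any library, which allows at most 0.14 to 0.184 CPM per library (3 counts). Hk3, the myeloid hexokinase, reached 0.184 CPM in knockout library 3 and had no count elsewhere. Slc16a7 (MCT2) was at most at 0.0982 CPM in control and had no count in knockout. The control libraries held 0.234, 0.246 and 0.304 CPM of Pdk4 and the knockout libraries 0, 0.098 and 0 CPM, too few counts to test.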
